A study of Danio rerio with 24 samples.

Results

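Livers of zebrafish kept in HgCl2 for 8, 24, 48 and 96 h were followed over the 4 days, with 96 h set against 8 h and the 24 and 48 h livers giving the course between. The members were all arrays whose labels give mercuric chloride as the agent, 12 of the 24 arrays in the series, with 3 at each time. Each array carried Cy5-labelled RNA from 1 pool of 4 livers of adult fish aged 6 months to 1 year, beside a Cy3-labelled common reference. That reference was pooled RNA of wild-type fish of both sexes, and the methods name no tissue for it. The exposed groups were HgCl2 at 200 μg/L for 8, 24, 48 or 96 h, and the control groups were fish kept without mercury for the same times, again 3 pools each. The sex of the pooled fish is not given in the labels or methods, and the fish came from a farm. The labels call the pools biological replicates, so the p-values measure the spread between pools. The values are log2 Cy5 over Cy3, that is, liver over reference, and differences between groups are on the same log2 scale.

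Inorganic mercury binds the sulfur of cysteine side chains and of glutathione, the main small thiol of the cell, and so disturbs many enzymes and structural proteins. Liver takes up the metal from blood, conjugates and exports it, and answers damaged protein through chaperones and the proteasome. In female fish liver also makes vitellogenin, the yolk precursor, under oestrogen control. In zebrafish, lobes of exocrine pancreas, which makes digestive enzymes, lie close against the liver, so that dissected liver can hold pancreatic RNA.

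Between 96 and 8 h of HgCl2, 243 probes were higher and 267 lower at an adjusted p under 0.05, which is 1.49% and 1.63% of the 16340 probes tested. A probe past this threshold is called changed below. In control livers over the same interval 9 probes were higher and 26 lower, or 0.0551% and 0.159%. The difference between the exposed and the control change was called for 162 probes, or 0.991%, with 75 above and 87 below 0. Of the 243 probes that rose, 0 were called in the same direction in controls and 115 (47.3%) had the same sign there. Of the 267 that fell, 1 was called in controls and 125 (46.8%) shared the sign, beside 50.2% of all probes whose control change was above 0. Only 105 of the risers and 80 of the fallers carry 1 gene symbol, so most called probes cannot be named here.

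**Figure D1:**
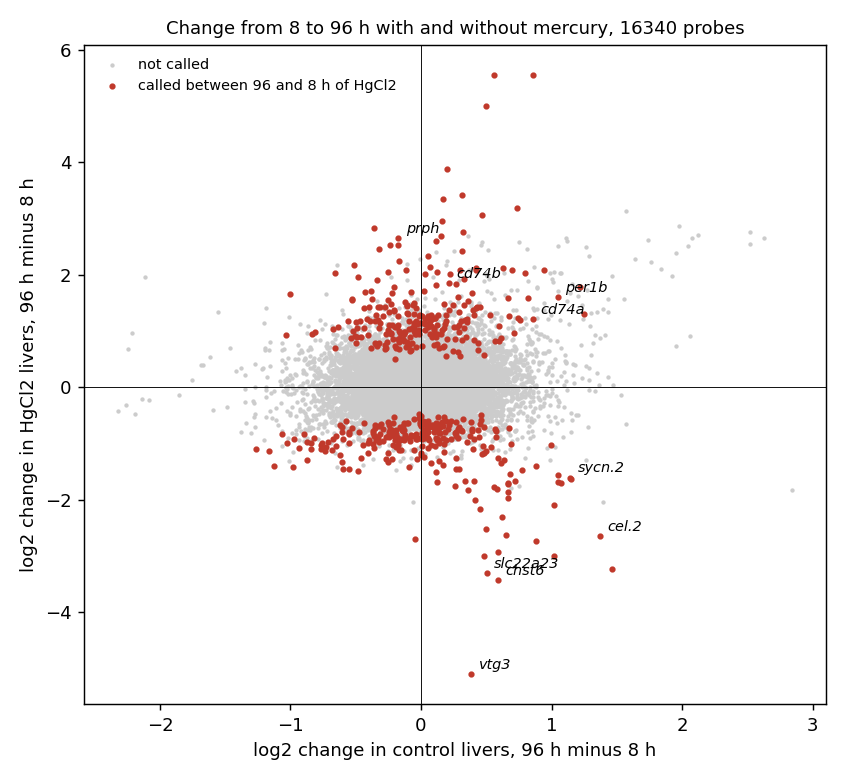
Change from 8 to 96 h in HgCl2 livers (vertical axis, log2) against the change in control livers (horizontal axis, log2) for 16340 probes, with those called in exposed livers in red. The called probes lie far from 0 on the vertical axis and on both sides of 0 on the horizontal axis, where 47.3% of the 243 risers have the same sign in controls. The gene vtg3 is the lowest point.

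The size of the count depended on the fit. It was 118 with the 6 arrays alone, 184 without HgCl2 96 h replicate 3, 251, 278 and 256 without HgCl2 8 h replicates 1, 2 and 3, and 0 with the methods' t-test after adjustment. In the authors' value table, whose median over all probes stood 0.127 higher at 96 h, 1957 probes were called and 76.5% of them were higher, against 47.6% in the fit used here.

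The arrays were grouped by their reference channel, which was meant to carry the same RNA on every array. The methods do not say whether 1 preparation of it served all arrays. The 24 arrays were clustered on Cy3 alone and the tree was cut into 4 sets. The number 4 was a setting of the cut, so the clustering does not itself show that there are 4 sets. Among exposed arrays, the 34 pairs sharing a set correlated at -0.119 to 0.568 (median 0.259). The 32 pairs split between sets correlated at -0.397 to 0.118 (median -0.083), so the ranges overlapped. Among exposed arrays, those of 8 h and 24 h replicate 1 formed one set, and 24 h replicates 2 and 3 with all of 48 and 96 h another. Among control arrays, those of 8 and 24 h and 48 h replicates 1 and 2 formed one set, and 48 h replicate 3 with all of 96 h another. The set and the change from 8 to 96 h therefore cannot be told apart in exposed livers beyond what their 24 h group bridges, nor in controls beyond what their 48 h group bridges, and the comparison of the exposed with the control change crosses all 4 sets. The reference channel itself was called different between 96 and 8 h at 821 probes (5.02%) in the exposed arrays and at 3109 probes (19%) in the control arrays. With the set as a block, 10 probes passed the threshold, 6 of them among the 510, with a median standard error over the 510 called probes of 0.393 with the block and 0.226 without it, and 498 of the 510 kept their sign. The named genes called both with and without the block were prph, senp1, per1b and cep55l among the risers and vtg3 among the fallers. Within the later set alone, where 96 h was set against 24 h replicates 2 and 3, 114 probes were higher and 97 lower. That comparison shares its 96 h arrays with the comparison of 96 with 8 h, so its values below stand beside the others and are no separate check. Median Cy5 foreground was 316 to 556 intensity units at 8 h and 546 to 570 at 96 h, and 66.5% to 79% of probes at 8 h and 86.9% to 90.4% at 96 h stood above background in Cy5. A probe counted as above background where over 50% of its pixels exceeded the local background by 2 standard deviations.

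The means of the 24 and 48 h arrays took no part in choosing the 243 and 267 probes. These arrays did enter the spread that all 24 arrays share in the fit, and so the p-values. The 96 and 8 h means chose the probes, so that medians between these ends are a description only. Relative to 8 h, the median of the 243 risers was 0.432 at 24 h, 0.696 at 48 h and 1.17 at 96 h, against -0.0738, -0.0534 and -0.028 in control livers at the same times. The 267 fallers stood at -0.372, -0.563 and -0.912, against 0.0182, 0.0511 and 0.0158 in controls. Of the risers 147 moved up at all 3 steps, and of the fallers 184 moved down at all 3. The ends fixed the net direction, and these counts stand without a share over all probes. Single steps carried few calls: 3 probes (0.0184%) between 24 and 8 h, 2 (0.0122%) between 48 and 24 h and 5 (0.0306%) between 96 and 48 h. Between 96 and 24 h 110 probes (0.673%) were called, 73 higher and 37 lower, and a test over all 4 exposed times called 199 (1.22%). The array HgCl2 24 h replicate 1, the one in the earlier reference set, weighed on these counts: without it 317 probes were called between 24 and 8 h and 211 between 96 and 24 h.

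**Figure D2:**
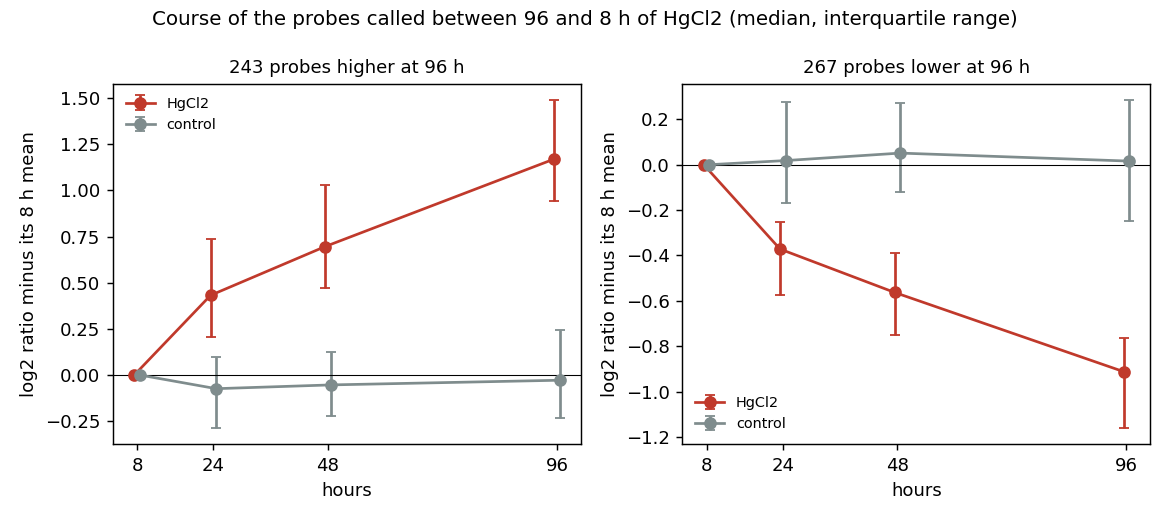
Median log2 ratio relative to 8 h (points) with the interquartile range (bars) at each time in hours, for the 243 probes higher and the 267 lower at 96 h. The exposed medians move away from 0 to 1.17 and -0.912 at 96 h, while the control medians stay between -0.0738 and 0.0511; the exposed values at 96 and 8 h chose the probes.

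The largest named fall was that of vtg3, a vitellogenin. Its log2 ratios were -1.11, -0.64 and -0.61 in the 8 h pools, -1.0, -1.19 and -1.45 in the 24 h pools, -3.43, -1.73 and -1.79 in the 48 h pools and -5.61, -6.07 and -6.01 in the 96 h pools of HgCl2. The raw Cy5 intensity of the spot was 1335, 1009 and 939 units at 96 h, against 24046, 40244 and 39263 at 8 h. All 96 h pools lay far below every other exposed pool, and the first 48 h pool lay below the rest of its group. The change from 8 to 96 h was -5.11 ± 0.41 (standard error, n = 3 each; limma, adjusted p = 6.24e-07), of which -3.58 came between 48 and 96 h (adjusted p = 0.000217). The reference spot was saturated, so the ratio rests on Cy5, which changed by -5.62 on its own. Control livers read -1.95 to 0.66, with Cy5 saturated on all arrays from 24 h on, and their change from 8 to 96 h is therefore not measured by this spot. Of the 13 genes listed with vitellogenin and the oestrogen response, vtg3 alone was called. Of all 5355 named genes 1.36% fell and 1.76% rose. The oestrogen receptor esr1 changed by -0.902 (adjusted p = 0.301) and the protease gene nothepsin, nots, by -0.706 (adjusted p = 0.357).

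In 3 other large falls the mean level at 24 h was within about 0.20 of that at 8 h and the fall came in the later steps. The gene chst6, which encodes a carbohydrate sulfotransferase, had log2 ratios of -1.54, -1.59 and -1.22 in the 8 h pools, -1.38, -1.51 and -2.06 in the 24 h pools, -3.66, -2.65 and -2.86 in the 48 h pools and -4.37, -5.03 and -5.26 in the 96 h pools, against -1.65 to 0.81 over the control arrays. Its change from 8 to 96 h was -3.44 ± 0.33, a 10.8-fold fall (adjusted p = 3.97e-06), and its change from 8 to 24 h was -0.20. The transporter-family gene slc22a23 followed, with -3.88, -4.60 and -5.06 at 96 h, against -1.21, -1.37 and -1.02 at 8 h. Its fall was 9.94-fold (change -3.31 ± 0.35, adjusted p = 9.65e-06), and the step from 48 to 96 h was also called (-2.17, adjusted p = 0.021). The membrane protein gene tmem266 read -3.70, -4.05 and -4.38 at 96 h, against -1.13, -1.14 and -0.87 at 8 h, a 7.97-fold fall (adjusted p = 6.07e-06). In these 3 genes the 96 h and 8 h pools were far apart, and the 24 h pools lay among or close to the 8 h pools. Some smaller falls given below also came after 24 h, with changes from 8 to 24 h of 0.16 for rnf180b, -0.05 for rpl34 and -0.07 for rpl9.

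Smaller falls were those of rnf180b, a ubiquitin ligase gene (-1.66 ± 0.22, adjusted p = 0.000211), and of hdr, a death receptor gene of the tumour necrosis factor receptor family (-1.81 ± 0.29, adjusted p = 0.00128). Both were also called between 96 and 24 h within the later reference set (adjusted p = 0.000902 and 0.0385), as were vtg3 (0.0001), chst6, slc22a23 and tmem266 (each 0.000204). The apoptosis inhibitor gene xiap fell 6.19-fold (-2.63 ± 0.43, adjusted p = 0.00173), with -3.82, -3.73 and -3.46 at 96 h, against -1.55, -0.85 and -0.72 at 8 h. Within the later set its difference from 24 h was -1.67 (adjusted p = 0.0888). The gene ankrd6b, whose protein acts in Wnt signalling, fell by 1.75 ± 0.32 (adjusted p = 0.00446), and nr2f1b, an orphan nuclear receptor gene, by 1.01 ± 0.19 (adjusted p = 0.00635). All 8 genes from chst6 to nr2f1b were called with any 1 of the 6 arrays left out, and their change differed from that of controls (adjusted p from 0.000119 for chst6 to 0.0368 for nr2f1b).

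Several digestive enzyme transcripts of the exocrine pancreas fell in exposed livers. Of 6 marker genes on the array 4 fell, 0 rose and all 6 had changes below 0, with a median of -1.70. Over all 5355 named genes 1.36% fell and 1.76% rose, 2812 changes were above 0 and the median was 0.0226. In controls all 6 changes were above 0, with a median of 0.666 and no call. The lipase gene cel.2 had log2 ratios of -1.24, -3.55 and -2.89 at 96 h, against 0.32, 0.16 and -0.21 at 8 h, a change of -2.65 ± 0.53 (adjusted p = 0.00957). The second 48 h pool, at 0.44, was as high as the 8 h pools, and the other two 48 h pools read -1.83 and -1.30. The syncollin gene sycn.2, whose product sits in the granules that store the enzymes, read -0.99, -2.12 and -1.43 at 96 h, against 0.05, 0.27 and -0.03 at 8 h, a change of -1.61 ± 0.29 (adjusted p = 0.00446). The carboxypeptidase genes cpb1 and cpa5 fell by 1.86 ± 0.39 (adjusted p = 0.0135) and 1.78 ± 0.40 (adjusted p = 0.0184). The trypsinogen gene prss1 changed by -0.521 (adjusted p = 0.374) and the chymotrypsinogen gene ctrb.3 by -0.756 (adjusted p = 0.244). In the 4 called genes every 96 h pool lay below every 8 h pool, as it did for 12.5% of all probes. The exposed change differed from the control change for cel.2 (adjusted p = 0.01), sycn.2 (0.00157) and cpb1 (0.03) and missed the threshold for cpa5 (0.0512).

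The mean level of the 6 markers was -1.13, -1.62 and -1.56 in the 96 h pools, against 0.123, 0.0555 and 0.105 in the 8 h pools, and it was 0.188 in the second 48 h pool beside -1.10 and -0.924 in the others. In a bulk sample fewer cells of a type and less RNA per cell cannot be told apart, and how much pancreas each dissection held was not measured. The call of cpb1 was lost without HgCl2 96 h replicate 1 (adjusted p = 0.0526). That of cpa5 was lost without HgCl2 96 h replicate 2 or 3 or any 1 of the 8 h pools, with an adjusted p of at most 0.0652. Within the later reference set none of the 4 differed from 24 h at the threshold, with changes of -1.92, -1.26, -0.91 and -1.15 for cel.2, sycn.2, cpb1 and cpa5 (adjusted p from 0.0677 to 0.361).

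**Figure D3:**
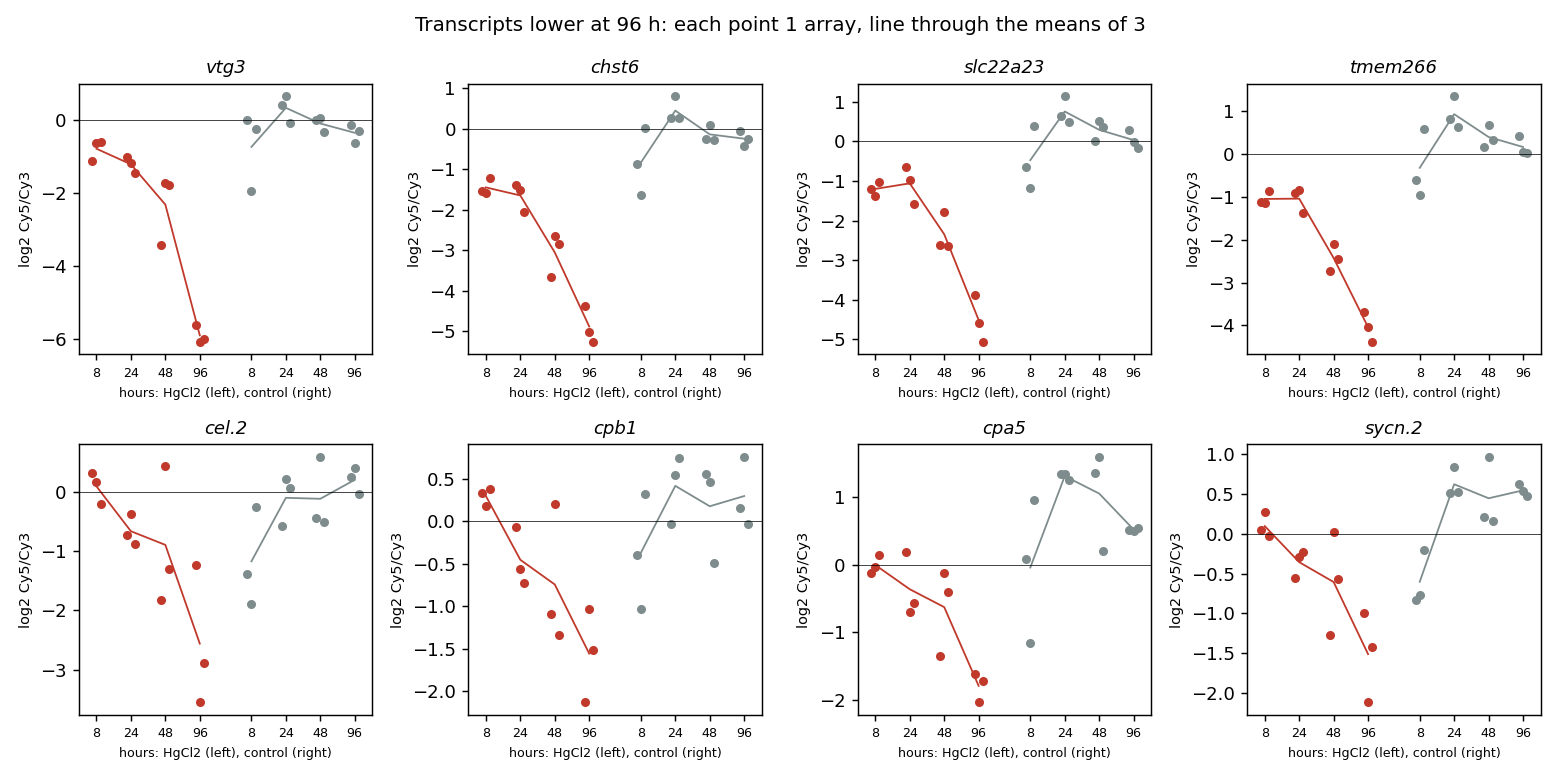
Log2 Cy5 over Cy3 of 8 transcripts that fell, by hours, with HgCl2 arrays on the left and control arrays on the right of each panel; each point is 1 array and the line joins the means of 3. The upper row drops mainly at 48 and 96 h, and vtg3 reads -5.61 to -6.07 at 96 h. In the lower row the second 48 h pool lies above the other 48 h pools.

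Several transcripts of leukocytes and of antigen presentation rose. Of 13 leukocyte markers 4 rose and 0 fell, with a median of 0.612 in exposed livers and 0.144 in controls. Of 20 genes of antigen presentation and the interferon response 8 rose and 0 fell, with a median of 0.554 in exposed livers and -0.0445 in controls. The lists share cd74a and cd74b, and the second list shares psme1 and psmb8a with the proteasome list below, so these counts overlap. Over all 5355 named genes 94 (1.76%) rose and 73 (1.36%) fell. The leukocyte median ranged with the scaling, at 0.382 without background correction and 1.04 in the authors' table.

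The invariant chain gene cd74b, whose product guides MHC class II molecules in antigen-presenting cells, had log2 ratios of -0.21, -0.09 and 0.09 in the 8 h pools, -0.44, -0.18 and -0.12 in the 24 h pools, 0.51, 1.13 and 0.32 in the 48 h pools and 1.36, 2.35 and 1.62 in the 96 h pools. The control arrays read 0.01 to 0.60. The exposed levels at 24 h were no higher than at 8 h, and all 96 h pools exceeded all other pools of the series. The change from 8 to 96 h was 1.85 ± 0.22, or 3.60-fold (adjusted p = 5.74e-05), and it differed from the control change (1.63, adjusted p = 0.0125). The paralog cd74a rose by 1.21 ± 0.22 (adjusted p = 0.00446), with 0.62, 0.91 and 1.35 at 96 h, against -0.26, -0.25 and -0.24 at 8 h. Its controls read 0.71, 0.79 and 0.63 at 96 h, against -0.55, -0.28 and 0.38 at 8 h, a change of 0.86 (adjusted p = 0.13), and the difference from controls was not called (0.35, adjusted p = 0.624).

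The macrophage gene mpeg1.1, which encodes a pore-forming protein, was not above background in Cy5 on any 8 h array and was above it on all 96 h arrays, with the reference below background in both groups. The raw Cy5 intensity was 604, 837 and 694 units at 96 h, against 262, 235 and 210 at 8 h. Its level was at least 2.34-fold higher at 96 h (adjusted p of the ratio 3.21e-05). The bound sets the mean of the bright group against a floor, which per array is the higher of the dim probe's own value and the lowest signal above background. It was not above background in Cy5 on any control 96 h array either, so the difference from the control change is not measured by this probe. The galectin gene lgals9l1 rose by 1.18 ± 0.29 (adjusted p = 0.0302), a call lost without HgCl2 96 h replicate 2 or 3 or HgCl2 8 h replicate 2 or 3 (adjusted p up to 0.111). Among markers that were not called, the pan-leukocyte gene ptprc changed by 0.703 (adjusted p = 0.189), lysozyme, lyz, by 1.09 (0.132), the actin-bundling gene lcp1 by 0.612 (0.0701), the neutrophil peroxidase gene mpx by 0.383 (0.667), the T cell kinase gene zap70 by -0.39 (0.383) and the macrophage growth factor receptor gene csf1ra by -0.446 (0.149). The mean of the 13 markers was 0.816, 0.86 and 0.686 in the 96 h pools, against 0.15, 0.0133 and 0.0769 in the 8 h pools, and all 96 h pools were the highest of the series.

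The galectin-1-like gene lgals1l1 also rose. Its raw Cy5 intensity was 986, 1679 and 1396 units at 96 h, against 336, 198 and 240 at 8 h, with the reference below background in both groups, so that the ratio has no measured denominator. The change of the ratio was 3.41 ± 0.38 (adjusted p = 2.31e-05), Cy5 alone changed by 1.99, and a second probe of the gene rose by 1.71 ± 0.39 (adjusted p = 0.0187). The granulin gene grna.1, a growth factor gene of the myeloid series, read 3.57, 3.98 and 3.82 at 96 h, against 3.15, 0.39 and -0.47 at 8 h. At 8 h its Cy5 was above background on 2 of 3 arrays and its reference on 1. At 96 h its Cy5 was above background on all 3 arrays and its reference on 2. The first 8 h pool was close to the 96 h pools and the others were far below, and the change of 2.77 ± 0.61 (adjusted p = 0.0163) was lost without HgCl2 96 h replicate 3 or HgCl2 8 h replicate 2 or 3 (adjusted p up to 0.083).

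In b2m and psme1, genes of MHC class I presentation, the mean at 24 h lay between those at 8 and 96 h. The class I light chain gene b2m had log2 ratios of 1.06, 0.25 and 0.42 in the 8 h pools, 0.48, 1.37 and 1.55 in the 24 h pools, 1.81, 1.84 and 1.88 in the 48 h pools and 2.11, 2.29 and 2.15 in the 96 h pools, against -0.71 to 0.23 over the control arrays. The change was 1.61 ± 0.24 (adjusted p = 0.000776), and b2ml, a related gene, rose by 1.19 ± 0.24 (adjusted p = 0.0102). The proteasome activator gene psme1 read -0.23, -0.25 and 0.12 in the 8 h pools, 0.61, 1.43 and 1.29 in the 24 h pools, 1.58, 2.45 and 1.63 in the 48 h pools and 1.89, 1.17 and 1.23 in the 96 h pools. Its change from 8 to 96 h was 1.55 ± 0.29 (adjusted p = 0.00573), 79.5% of that size had been reached at 24 h, and the change differed from that of controls (adjusted p = 0.014). The interferon-induced gene ifi44a8 was highest at 48 h, with 3.38, 3.48 and 2.70, beside 2.05, 3.03 and 1.47 at 96 h and 0.34, 0.13 and -0.17 at 8 h. Its change from 8 to 96 h was 2.09 ± 0.40 (adjusted p = 0.00635). The ratio of the kinase gene jak2a, which acts downstream of cytokine receptors, rose by 0.961 ± 0.206 (adjusted p = 0.0144). Its reference channel alone changed by -1.081, which is larger in size, so this ratio alone does not show a rise of the liver signal. The class I heavy chain gene mhc1uda rose by 2.03 ± 0.51 at one probe (adjusted p = 0.0319) and changed by 0.05 ± 0.19 at another (adjusted p = 0.914), so its probes disagreed.

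Proteasome genes had mostly positive changes. Of 20 members 3 rose, 0 fell and 19 had changes above 0, with a median of 0.481 in exposed livers and -0.116 in controls. Of all 5355 named genes 1.76% rose in exposed livers and 2812 had changes above 0. Besides psme1 the risers were psmb8a, an immunoproteasome subunit gene (1.05 ± 0.24, adjusted p = 0.0182, with the reference not above background at 96 h and a change of 0.78 in Cy5 alone), and psmb6, a catalytic core subunit gene (0.86 ± 0.20, adjusted p = 0.0223), while the second activator gene psme2 changed by 0.83 (adjusted p = 0.0539). The mean of the 20 genes was 0.103, 0.115 and 0.105 in the 8 h pools, 0.295, 0.766 and 1.03 in the 24 h pools, 0.666, 0.564 and 0.556 in the 48 h pools and 0.872, 0.633 and 0.517 in the 96 h pools. The first 24 h pool, which shares its reference set with the 8 h pools, was the lowest after 8 h, and the levels at 24, 48 and 96 h overlapped. The call of psmb8a was lost without HgCl2 96 h replicate 1 or 2 or HgCl2 8 h replicate 1 or 3 (adjusted p up to 0.0624), and that of psmb6 without HgCl2 96 h replicate 1 or HgCl2 8 h replicate 2 or 3 (up to 0.0853).

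Ribosomal protein genes had mostly negative changes. Of 15 members 3 fell, 0 rose and 13 had changes below 0, with a median of -0.38 in exposed livers and 0.0895 in controls. Of all named genes 1.36% fell in exposed livers. The exposed median was -0.701 with median centring, -0.736 in the authors' table and -0.724 in Cy5 alone. The small subunit gene rps20 read -0.70, -0.72 and -0.77 at 96 h, against -0.14, 0.15 and 0.05 at 8 h, a change of -0.75 ± 0.16 (adjusted p = 0.0122), which differed from controls (adjusted p = 0.0388). The large subunit genes rpl34 and rpl9 fell by 0.66 ± 0.15 (adjusted p = 0.0165) and 0.54 ± 0.13 (adjusted p = 0.027). In each of the 3 genes the 96 h pools lay below all 8 h pools, as for 12.5% of all probes. The mean of the 15 genes was -0.406, -0.511 and -0.565 in the 96 h pools, against -0.298, -0.064 and -0.187 in the 8 h pools, with no overlap. All 3 calls were lost without HgCl2 96 h replicate 3 or HgCl2 8 h replicate 2, those of rpl34 and rpl9 also without HgCl2 8 h replicate 3 and that of rpl9 without HgCl2 96 h replicate 2 (adjusted p up to 0.0527, 0.0723 and 0.102 for rps20, rpl34 and rpl9).

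**Figure D4:**
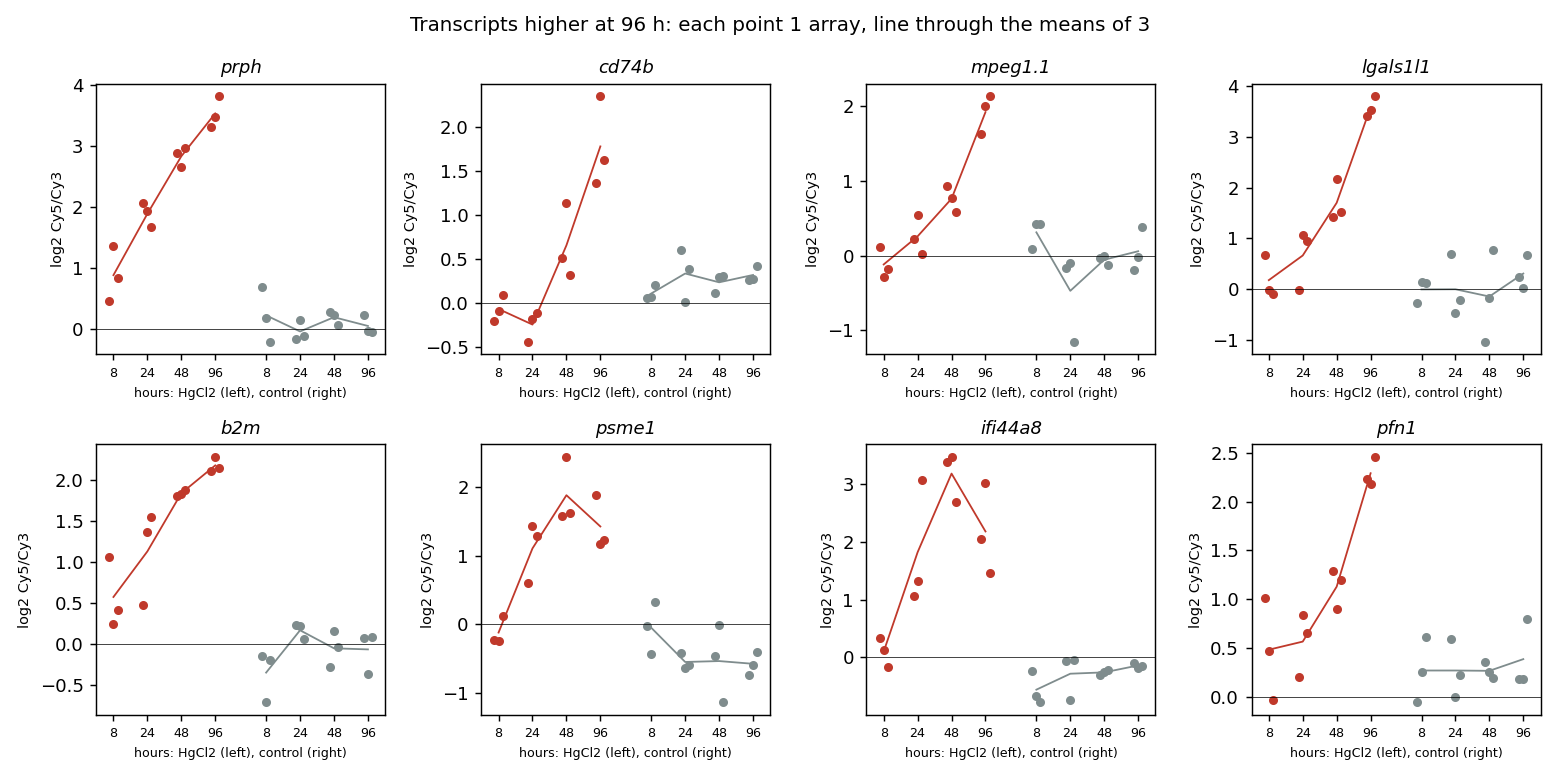
Log2 Cy5 over Cy3 of 8 transcripts that rose, by hours, with HgCl2 arrays on the left and control arrays on the right of each panel; each point is 1 array and the line joins the means of 3. The genes prph and b2m move up at each step, cd74b, mpeg1.1, lgals1l1 and pfn1 mainly at 48 and 96 h, and ifi44a8 and psme1 peak at 48 h.

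Among named genes the rise with the lowest adjusted p was that of prph, which encodes peripherin, an intermediate filament protein best known from neurons. Its log2 ratios were 0.45, 1.36 and 0.83 in the 8 h pools, 2.06, 1.93 and 1.67 in the 24 h pools, 2.88, 2.65 and 2.96 in the 48 h pools and 3.31, 3.47 and 3.82 in the 96 h pools, against -0.21 to 0.69 over the control arrays. No pool of one exposed time overlapped with a pool of another. The change was 2.65 ± 0.22, or 6.29-fold (adjusted p = 6.24e-07), its highest adjusted p with 1 array left out was 8.84e-06, and within the later reference set 96 against 24 h gave 1.73 (adjusted p = 0.00113). The SUMO protease gene senp1 also rose. Its raw Cy5 intensity was 2062, 2016 and 1803 units at 96 h, against 325, 328 and 253 at 8 h, with a ratio change of 2.45 ± 0.28 (adjusted p = 3.21e-05) over a reference below background. The signalling adaptor gene tab3, which links cytokine receptors to NF-kB, rose by 1.93 ± 0.24 (adjusted p = 9.13e-05), with 1.2, 2.13 and 2.11 at 96 h, against -0.68, 0.21 and 0.12 at 8 h. The tight junction gene cldn3c rose by 2.08 ± 0.32 (adjusted p = 0.000996), with most of the difference between 48 and 96 h (1.45, adjusted p = 0.131). All 4 changes differed from those of controls (adjusted p from 8.07e-05 for prph to 0.025 for tab3).

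Genes of the actin cytoskeleton gave 5 rises and 0 falls among 51 members, with a median of 0.104 in exposed livers and -0.0717 in controls, where the cadherin gene cdh1 alone rose. Of all named genes 1.76% rose in exposed livers, and in the authors' table the list's median relative to that of all probes was -0.0311. The profilin gene pfn1, whose product binds actin monomers, read 2.23, 2.18 and 2.46 at 96 h, against 1.01, 0.47 and -0.04 at 8 h, a change of 1.81 ± 0.25 (adjusted p = 0.000248), and its second probe rose by 1.29 ± 0.21 (adjusted p = 0.00171). The actin genes actb1, actc1b and actc1a rose by 1.47 ± 0.39, 1.43 ± 0.33 and 1.05 ± 0.28 (adjusted p = 0.0405, 0.022 and 0.0449). The cofilin gene cfl1, whose product severs actin filaments, rose by 0.83 ± 0.225 (adjusted p = 0.0471). The exposed change differed from the control change for pfn1 (adjusted p = 0.0191) and was not called different for actb1 (0.251), actc1b (0.073), actc1a (0.169) or cfl1 (0.541). The actin paralogs are close in sequence and their probes may share signal. Each actin call was lost without HgCl2 96 h replicate 3 or HgCl2 8 h replicate 1 or 3, those of actb1 and actc1a also without HgCl2 8 h replicate 2 and that of actc1a without HgCl2 96 h replicate 2 (adjusted p up to 0.208). The 172 beta-actin control spots, left out of the fit, had medians of 1.56, 1.18 and 2.16 at 96 h, against 1.06, 0.82 and 0.27 at 8 h, so that these pools did not overlap, while the control arrays read -0.24 to 1.34.

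Calls in detoxification and metabolism were few in number. Of all named genes 1.76% rose and 1.36% fell. The 11 genes of glutathione, thioredoxin and the Nrf2 response had 9 changes above 0. Their median was 0.529 in exposed livers (0.105 in Cy5 alone) and -0.163 in controls. Of these 11 genes mgst3b alone rose (2.04 ± 0.51, adjusted p = 0.0302). This microsomal glutathione transferase gene read 3.28, 1.92 and 2.69 at 96 h, against 0.77, 0.32 and 0.69 at 8 h, and had reached 2.38, 2.42 and 2.6 at 24 h. The glutathione S-transferase pi gene gstp1.2, which was on no list, rose by 2.33 ± 0.43 (adjusted p = 0.00475), with 3.09, 2.35 and 2.5 at 96 h, against 0.13, 0.13 and 0.68 at 8 h. In Cy5 alone mgst3b changed by 1.51 and gstp1.2 by 1.24 (limma, adjusted p = 0.0593 and 0.0832), and the reference of gstp1.2 by -0.86. In both genes control 8 h replicate 1 was high, at 2.72 and 2.12, and the difference from controls was not called (adjusted p = 0.0704 each). The call of mgst3b was lost without HgCl2 96 h replicate 1 or 3 or any 1 of the 8 h pools (adjusted p up to 0.0989). Apolipoprotein M, apom, rose by 1.01 ± 0.22 (adjusted p = 0.0162), with 1.03, 0.74 and 0.86 in the 8 h pools, 0.62, 0.78 and 0.75 in the 24 h pools, 0.77, 1.2 and 1.88 in the 48 h pools and 1.93, 1.70 and 2.04 in the 96 h pools. That call was lost without HgCl2 96 h replicate 3 or HgCl2 8 h replicate 2 or 3 (up to 0.0768). Other settings that lost it included the authors' table, median centring and the exposed arrays alone. In Cy5 alone apom changed by 0.62 (limma, adjusted p = 0.148).

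Tyrosine aminotransferase, tat, and pyruvate carboxylase, pcxb, enzymes of amino acid breakdown and glucose synthesis, rose by 2.08 ± 0.42 and 1.90 ± 0.43 at one probe (adjusted p = 0.00921 and 0.0172) but changed by 0.17 ± 0.20 and -0.27 ± 0.31 at a second. The gene wu:fb63a08 likewise rose at one probe (2.83 ± 0.72, adjusted p = 0.0333) and not at the other (-0.81, adjusted p = 0.13). The call of tat was lost without HgCl2 96 h replicate 3 or HgCl2 8 h replicate 1 (adjusted p up to 0.059), that of pcxb without HgCl2 96 h replicate 1 or HgCl2 8 h replicate 1 or 2 (up to 0.0584), and those of wu:fb63a08 and mhc1uda without 4 of the 6 arrays in turn (up to 0.115 and 0.13). The cystathionine lyase gene cth rose by 1.69 ± 0.46 (adjusted p = 0.0494) and the plasma selenoprotein gene selenop fell by 0.94 ± 0.25 (adjusted p = 0.0462). Both calls were lost with any 1 of the 6 arrays left out. In the electron transport chain, 13 genes gave 1 rise, cox5ba of complex IV (1.18 ± 0.29, adjusted p = 0.0295), and 1 fall, ndufb6 of complex I (-0.50 ± 0.13, adjusted p = 0.0442). Of all named genes 1.76% rose and 1.36% fell. Of the 13 changes 11 were above 0, with a median of 0.247 in exposed livers and -0.353 in controls. In the authors' table the exposed median lay 0.0665 above that of all probes. In Cy5 alone ndufb6 changed by 0.26, with the reference 0.77 higher at 96 h. Leaving out any 1 of the 6 arrays other than HgCl2 96 h replicate 2 ended both calls.

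Several lists had few calls or none. The 11 genes of cholesterol synthesis and uptake had a median of 1.04 in exposed livers and -0.336 in controls, 9 changes were above 0, and the lowest adjusted p was that of dhcr7, the last enzyme of the pathway (1.35 ± 0.40, adjusted p = 0.0637). Its ratios were 1.48, 1.23 and -0.39 at 96 h, against -0.13, -0.79 and -0.81 at 8 h, with the third 96 h pool among the 8 h pools. The 14-alpha demethylase gene cyp51 split the same way, with 1.39, 1.74 and -0.01 at 96 h, against 0.03, -0.72 and -0.80 at 8 h, and with the reference not above background at 96 h. Complement genes, 5 in number, had a median of 0.936 (0.468 in Cy5 alone, 0.609 with median centring and 0.611 in the authors' table), with 1.13 ± 0.38 for the central component c3a.2 (adjusted p = 0.104), and a median of -0.41 in controls. Cytosolic heat shock genes gave 2 rises among 28 (median 0.201), hsp70.3 (1.59 ± 0.35, adjusted p = 0.0165) and the co-chaperone gene dnajb1b (0.98 ± 0.23, adjusted p = 0.021), whose second probes changed by 1.23 (adjusted p = 0.146) and -0.21 (0.718). The reference of dnajb1b was not above background at 8 h, and its Cy5 alone changed by 1.17. For hsp70.3 Cy5 alone changed by 0.58 (limma, adjusted p = 0.415) and the reference alone by -0.98 (adjusted p = 0.0728). Much of that ratio change therefore lay in the reference. Of all named genes 1.76% rose, and every 96 h pool lay above every 8 h pool for 12.3% of all probes. The second 96 h pool stood apart for hsp70.3, at 2.47 beside 0.39 and 0.63. Its call was lost without HgCl2 8 h replicate 1 or 3 (adjusted p up to 0.0551), and that of dnajb1b without HgCl2 96 h replicate 2 or 3 or HgCl2 8 h replicate 1 or 3 (up to 0.0983).

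The hepatocyte, red blood cell, endothelial, intestine and ovary marker lists held 1 call between them. Over all 5355 named genes 1.76% rose and 1.36% fell, and at such shares lists of 6 to 13 genes hold few calls or none. Hepatocyte markers, 13 in number, had a median of 0.232 with 1 rise, that of tat, and the median depended on the scaling, at -0.161 with median centring, 0.0115 in the authors' table and 0.00312 in Cy5 alone. Red blood cell markers, 10 in number, had a median of -0.0683 with 0 calls. Endothelial and intestine markers, 6 each, had medians of -0.0907 and -0.274 with 0 calls, and in Cy5 alone these lay 0.12 and 0.026 above the median of all probes. Ovary and egg markers, 10 in number, had 9 changes above 0 and a median of 0.645 in exposed livers and 0.57 in controls with 0 calls, and their mean ranged widely, at -0.119, 0.273 and 2.02 in the 96 h pools, against -0.726, -0.0171 and 0.37 in the 8 h pools. One 48 h pool, the first, and one 96 h pool, the third, had the highest ovary marker means, at 1.79 and 2.02. The first 48 h pool was also the one with the lowest vtg3 of its group, but the third 96 h pool, at -6.01 for vtg3, did not differ from the others of its time. The part of these markers in the results was not tested.

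The clock time of sampling is not given in the labels or methods. If all exposures began at the same hour, 24, 48 and 96 h fell at one time of day and 8 h at another. The clock repressor gene per1b, which follows the light cycle, was not above background in Cy5 on any 8 h array, with raw intensities of 511, 630 and 632 units at 96 h, against 99, 178 and 140 at 8 h. Its log2 ratios were -1.67, -2.08 and -2.01 in the 8 h pools, -0.14, -1.31 and -0.49 in the 24 h pools, -0.54, -0.54 and -0.44 in the 48 h pools and -0.42, -0.23 and -0.32 in the 96 h pools, so that all later pools lay above all 8 h pools, the second 24 h pool least. The level at 96 h was at least 2.09-fold that at 8 h (adjusted p of the ratio 0.00107). Controls gave the same order, with -1.0, -0.95 and -0.93 at 96 h, against -1.57, -2.14 and -2.32 at 8 h, a change of 1.05 (adjusted p = 0.0971), and the exposed and control changes were not called different (0.55, adjusted p = 0.463). The other 22 clock genes on the array had 0 calls. With 1.76% of all 5355 named genes rising and 1.36% falling, 0 calls among 22 is close to the overall share. The median of all 23 was 0.102, or -0.00576 relative to all probes without background correction. Without clock times, time of day cannot be told apart from exposure time within the exposed livers, and the control arrays of the same times show a called change for 35 probes in all.

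**Figure D5:**
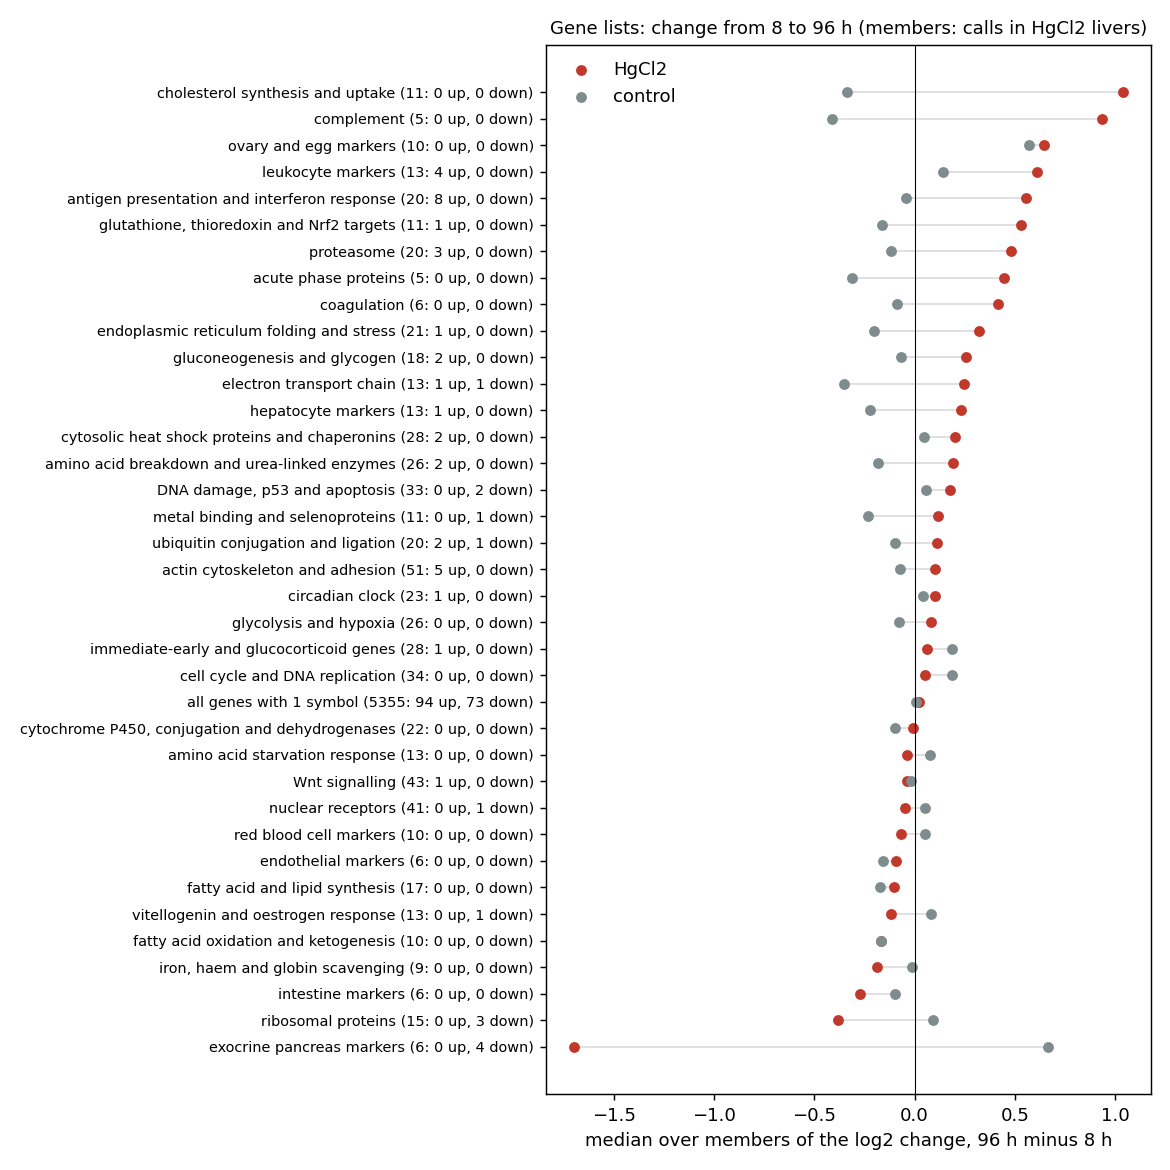
Median log2 change from 8 to 96 h over the members of each gene list in HgCl2 livers (red) and control livers (grey); the labels give the number of members and how many were called up and down in HgCl2 livers. Exocrine pancreas markers stand lowest at -1.70, with controls at 0.666, and cholesterol genes highest at 1.04, with controls at -0.336.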

How the data were processed

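Liver RNA (Cy5) was hybridised with the common reference (Cy3) on spotted oligonucleotide arrays, with no dye swap. The authors scanned the slides and deposited, per array, spot intensity and local background in both channels and the percent of pixels above background. The authors also deposited a value table of log2 ratios, which matched background-subtracted ratios times 1 constant per array and did not carry the lowess normalisation of the methods. It was used as an alternative. Intensities were corrected with normexp (offset 50) and normalised by loess within arrays in limma 3.58.1 (R 4.3.3), after leaving out 172 beta-actin control spots. The 8 groups of 3 arrays were fitted together (16 residual degrees of freedom), with moderated tests and Benjamini-Hochberg adjustment over 16340 probes. The methods used ANOVA and a t-test, which was run as an alternative. The number of arrays limits the precision.

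Of the probes, 5916 had 1 gene symbol, 75 several and 10349 none. Symbols were updated through gene identifiers. In lists a gene was represented by its brightest probe, and among the largest changes by the probe that changed most, with second probes given beside it where they differ. For 6139 probes, 225 of the 510 called among them, 1 channel was below background or saturated on every array of the 8 h or the 96 h exposed group. Named genes were the 12 largest rises and 12 largest falls between 96 and 8 h among called probes with 1 symbol and measured signal, up to 4 called members of each list by lowest p (or the member with the lowest p), the largest called changes of the other steps (4 each way), the 5 lowest interaction p-values, up to 6 genes called alike in exposed and control livers, genes the study followed by real-time PCR and all clock genes. Other genes given, such as cfl1, cdh1, b2ml, jak2a, cep55l and the uncalled markers, were added after their values were seen. The exposed livers and the gene lists were chosen with earlier results of these data known. After values were seen, rps6ka1, rps6ka4, rps6kal and rps19bp1, which are not ribosomal proteins, were taken out of that list. Analyses were tested on simulated data, and figures were drawn with matplotlib 3.10.9 (Python 3.11.15).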

Additional observations from a re-analysis of the deposited data

Results flagged for a closer look

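For 24 of the 57 genes followed, the change from 8 to 96 h differed between HgCl2 and control livers by the interaction test (limma, adjusted over all probes). Most of the 57 were chosen by a called change from 8 to 96 h in HgCl2 livers, which is part of this difference. Some were chosen by a low interaction p-value. The count of 24 therefore does not measure how common such differences were. Over all 16340 probes the interaction was called for 162, or 0.991%. The values below are the exposed change minus the control change on the log2 scale, with n = 3 pools per group. The reference-channel sets differ between 8 and 96 h in exposed and in control arrays, and their part in these differences was not tested.

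Among falling genes it was -5.49 for vtg3 (adjusted p = 8.07e-05). The Cy5 signal of vtg3 was saturated on 2 of 3 control arrays at 8 h and on all control arrays at 96 h. Its reference spot was saturated too, so that its control change is not measured and the value is not a measured difference. The difference was -4.03 for chst6 (0.000119), -3.82 for slc22a23 (0.000411), -3.48 for tmem266 (0.000223), -3.28 for xiap (0.00955), -2.39 for hdr (0.00553), -2.07 for rnf180b (0.00161), -2.01 for ankrd6b (0.032) and -1.19 for nr2f1b (0.0368). The pancreas genes gave -4.02 for cel.2 (0.01), -2.76 for sycn.2 (0.00157) and -2.52 for cpb1 (0.03). The values were -0.96 for ndufb6 (0.014) and -0.95 for rps20 (0.0388). Leaving vtg3 aside, the control change was above 0 for all of these falling genes, so part of each difference lies in the controls. That control change ran from 0.18 for nr2f1b to 1.37 for cel.2, with 0.59 for chst6, 0.65 for xiap and 0.46 for ndufb6.

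Among rising genes it was 3.10 for lgals1l1 (adjusted p = 0.00607) and 2.78 for senp1 (0.00109), both over a reference below background at 8 and 96 h of HgCl2 and, for lgals1l1, with Cy5 below background on all control 96 h arrays, and 2.82 for prph (8.07e-05). It was 2.3 for mpeg1.1 (0.00109), whose reference was below background at 8 and 96 h of HgCl2 and whose Cy5 was below it on all exposed 8 h and control 96 h arrays, so that the value is not a measured difference. It was 2.2 for cldn3c (0.0198), 2.08 for psme1 (0.014), 1.73 for cox5ba (0.0432), 1.69 for pfn1 (0.0191), 1.63 for cd74b (0.0125) and 1.60 for tab3 (0.025).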

How the results depend on the processing

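Probes called for 96 against 8 h of HgCl2 (510 in the report) numbered 1957 in the authors' value table, 1870 in Cy5 alone, 339 with dim probes left out, 317 without background correction, 122 with the exposed arrays alone, 118 with the 6 arrays alone, 10 with the reference-channel set as a block and 0 by the methods' t-test after adjustment (2412 at an unadjusted p under 0.05). With 1 array left out they ran from 184 to 527. In the authors' table the counts were 329 for 24 against 8 h, 1 for 48 against 24 h, 14 for 96 against 48 h, 10 for the control change, 303 for the interaction and 909 for the test over 4 times. With median centring they were 1 for 48 against 24 h, 2 for 96 against 48 h, 148 for the control change, 261 for the interaction and 1421 for the reference channel. With the exposed arrays alone they were 0, 0, 2 and 40 for 24 against 8 h, 48 against 24 h, 96 against 48 h and 96 against 24 h, and 34 for the test over 4 times. Within the later reference set 211 were called for 96 against 24 h. With 1 array left out the ranges were 1 to 317 (24 against 8 h), 0 to 49 (48 against 24 h), 3 to 14 (96 against 48 h), 55 to 211 (96 against 24 h), 0 to 38 (control change), 75 to 269 (interaction), 111 to 549 (4 times) and 223 to 916 (reference channel). The causes were not tested.

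With the replicate number as a block 458 probes were called for 96 against 8 h and 1 for 48 against 24 h. Of 18 same-numbered pairs of exposed arrays 3 correlated above 0.1 (-0.312 to 0.223). These were 0.211 and 0.128 between 8 and 96 h (replicates 1 and 3) and 0.223 between 48 and 96 h (replicate 2). Differently numbered pairs were not set beside them, so whether the numbers pair the samples was not tested.

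Of the 53 called genes followed, 49 stayed called in the authors' table, 48 with the replicate block, 47 with median centring, 32 in Cy5 alone, 28 with the exposed arrays alone, 26 with the 6 arrays alone and 4 with the reference-channel set as a block. Calls lost in Cy5 alone included cd74a (0.66, limma, adjusted p = 0.134), cpb1 (-1.12, 0.0643), psmb6 (0.47, 0.354) and cox5ba (0.45, 0.407). The sign turned for ndufb6 in Cy5 alone (0.26), for psmb6 (0, that is, -0.00) and cyp51 (-0.01) with the set as a block, and for the cytochrome P450 list median over all probes (0.0237, against -0.00565 with 1 probe a gene). Relative to the median of all probes, list medians turned sign for 3 lists with median centring (hepatocyte markers -0.168, metal binding -0.107, glycolysis -0.0124), 4 in the authors' table (hepatocyte markers -0.115, metal binding -0.263, immediate-early genes -0.0937, actin -0.0311), 4 without background correction (endothelial markers 0.00284, clock -0.00576, immediate-early genes -0.0161, cell cycle -0.0215) and 5 in Cy5 alone (endothelial markers 0.12, intestine markers 0.026, acute phase proteins -0.0215, immediate-early genes -0.0513, DNA damage -0.0395).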

Other observations

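In control livers cdh1, the gene of an epithelial adhesion protein, rose by 1.332 from 8 to 96 h (adjusted p = 0.0179), where exposed livers changed by -0.062 (adjusted p = 0.896). This gene was chosen after its values were seen.

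The array control 8 h replicate 2 held the lowest control value of vtg3, chst6, slc22a23, tmem266, xiap, hdr, rnf180b and ankrd6b. It also held that of cel.2, cpb1, cpa5, rps20 and rpl34, and of the risers tab3 and b2m. Among fallers nr2f1b, sycn.2, ndufb6, rpl9 and selenop had their lowest control value on another array. A low control value at 8 h makes the exposed minus the control change of a falling gene larger in size. Over the 267 probes that fell in exposed livers, 58 (21.7%) had their lowest control value there, as had 1912 (11.7%) of all 16340 probes. The pattern was seen after the values and was not tested.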
